A study of Mus musculus with 21 samples.

Results

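The comparison described here is between N202 tumor cells recovered after their first 21 days on brain tissue, called brain P1, and the parental N202 cells that had not been grafted, called P0. It rests on 4 of the 21 arrays of the study: 2 arrays of the parental cells and 2 of the brain P1 cells. Groups were read from the array labels, and the array of a second, separately run adaptation to brain was not counted with the brain P1 arrays.

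N202 cells come from a mammary carcinoma of FVB mice that carry the rat neu gene (Her-2) as a transgene under the MMTV promoter, which is active in mammary epithelium. Both groups shared this transgene and a green fluorescent histone H2B with a G418 resistance cassette. For brain P1, spheroids of these cells had been placed on minced brain of C57BL/6 donors in a dorsal skinfold chamber, a window fitted to a fold of back skin, on female nude mice, which lack mature T cells. After the 21 days the cells were taken back into culture, selected with G418 and sorted for fluorescence, so RNA came from cultured cells of both groups and never from tissue. The second brain P1 array is labelled a technical replicate, while the parental arrays are only numbered; the methods describe both pairs as technical replicates begun from cells in culture. All p-values therefore rest on the spread within pairs of such replicates. The main fit had 5 pairs: parental P0, brain P1 and the later brain passages P2, P3 and P4 of the same cells. The p-values say nothing of the spread between mice or between adaptation experiments.

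A tumor cell that leaves the breast for the brain meets a tissue of neurons, astrocytes, oligodendrocytes and microglia, with little fibrillar collagen and with lipids, transmitters and guidance proteins that mammary gland does not supply. Her-2-driven tumors are known for spread to brain, and cells that settle there are thought to adjust adhesion, redox and transport genes and the molecules by which immune cells recognise them.

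The arrays were of the type Affymetrix Mouse Gene 1.0 ST, on which short probes along the exons of a gene are combined into a probe set. Each value is a log2 level after RMA, the procedure that corrects background, gives all arrays 1 distribution and combines the probes of a set; a difference of 1 is therefore a 2-fold change. A gene was tested if its probe set was among the 30.3% with the largest group means, of which the dimmest stood at 7.33, and 7301 genes had such a probe set with a symbol of their own. Changes are brain P1 minus parental P0, with a standard error (SE) from a limma fit of all 21 arrays and a p adjusted by Benjamini-Hochberg over all probe sets kept. An adjusted p under 0.05 is written as a call, and n = 2 arrays in both groups throughout. Levels under 7.33 are dim, and sizes of changes that start or end there are uncertain: 72 genes called higher had a parental mean under 7.33, 164 called lower had a brain P1 mean under it, and in 54 both means were under it.

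One of the 4 arrays stood apart at its dim end. On brain P1 replicate 2 the lowest percent of probe sets reached 2.08, one of the 5 highest such floors of the series, where the 16 arrays outside those 5 lay between 1.53 and 1.85. Calls without it are therefore given with the results. Over the genes tested, the 2 parental arrays differed by a median of 0.20 and the 2 brain P1 arrays by 0.18, against a median size of 0.26 for the change between groups.

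The label of a mammary tumor cell held on all 4 arrays. Krt8 and Krt18, the keratins of simple epithelium, lay between 12.46 and 13 and between 12.64 and 12.85, and the adhesion genes Cdh1 and Epcam lay between 10.50 and 11.01. Of 15 epithelial markers 13 exceeded 7.33 on at least 1 array, and only Erbb2 among the 14 tested passed the test. Several defining genes of brain cells were dim on every array: Rbfox3 of neurons at no more than 4.48, Gfap of astrocytes at no more than 4.71, Aif1 of microglia at no more than 4.70 and Pecam1 of endothelium at no more than 4.57. The summed linear level of 16 neuronal markers was 737 and 808 in parental cells and 579 and 600 at brain P1, and only Map2 among them exceeded 7.33. The 14 fibroblast and pericyte markers were all under 7.33 and summed to 416 and 403 against 398 and 358, led by Col1a1 and Col3a1. Other markers of glia were higher at brain P1 on both arrays: Ugt8a of oligodendrocytes read 3.21 and 3.15 and then 5.98 and 6.38, and the astrocyte markers Slc1a2 4.81 and 4.92 and then 5.62 and 5.89, and Glul 6.09 and 7.56 and then 8.05 and 8.56. The first 2 were too dim to be tested, and Glul did not pass (change 1.48, adjusted p = 0.19). Markers of astrocytes summed to 1100 and 2193 against 992 and 1159, led by Gja1 and Aldoc, those of oligodendrocytes to 1756 and 1678 against 1990 and 1696, led by Sox10 and Cnp, and those of endothelium to 448 and 573 against 503 and 565, led by Flt1 and Cldn5. The 17 markers of microglia and macrophages summed to 1645 and 1993 in parental cells and to 2505 and 2652 at brain P1. Within that list Cd14 was the highest gene, at 10.28 and 10.65 against 10.85 and 11.03, and Cd68, a lysosomal protein, rose by 1.94 (SE 0.34, adjusted p = 0.017), a call that was kept only without brain P1 replicate 2 (highest adjusted p = 0.11, without brain P1 replicate 1), while Csf1r, Itgam and Ptprc were at no more than 4.91 on all 4 arrays. The part of other cell types in the results was not tested. The 10 blood cell markers measured were all under 7.33 as well, with S100a8 at 4.38 and 4.40 in parental cells and 6.24 and 7.29 at brain P1, S100a9 next, and sums of 194 and 183 against 242 and 341. In such bulk RNA fewer cells with a transcript and less transcript per cell cannot be told apart.

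The first passage on brain was followed by more decreases than increases. Of 7301 genes, 141 were called higher (1.93%) and 264 lower (3.62%) than in parental cells, so 34.8% of the calls were increases; with chromosome medians subtracted they were 154 and 188, or 45% increases. Increases of at least 4-fold were found in 33 called genes and decreases of that size in 66, and at least 8-fold in 11 and 16. The median over all genes tested was -0.02. Each list count below is to be set against the 1.93% called higher and 3.62% called lower among all genes. On every called gene both brain P1 arrays lay on the same side of both parental arrays, as they did on 4136 of all 7301 genes. The plot of level against change shows called genes over the whole range of levels, with the largest changes among genes that were dim in one of the groups.

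**Figure D1:**
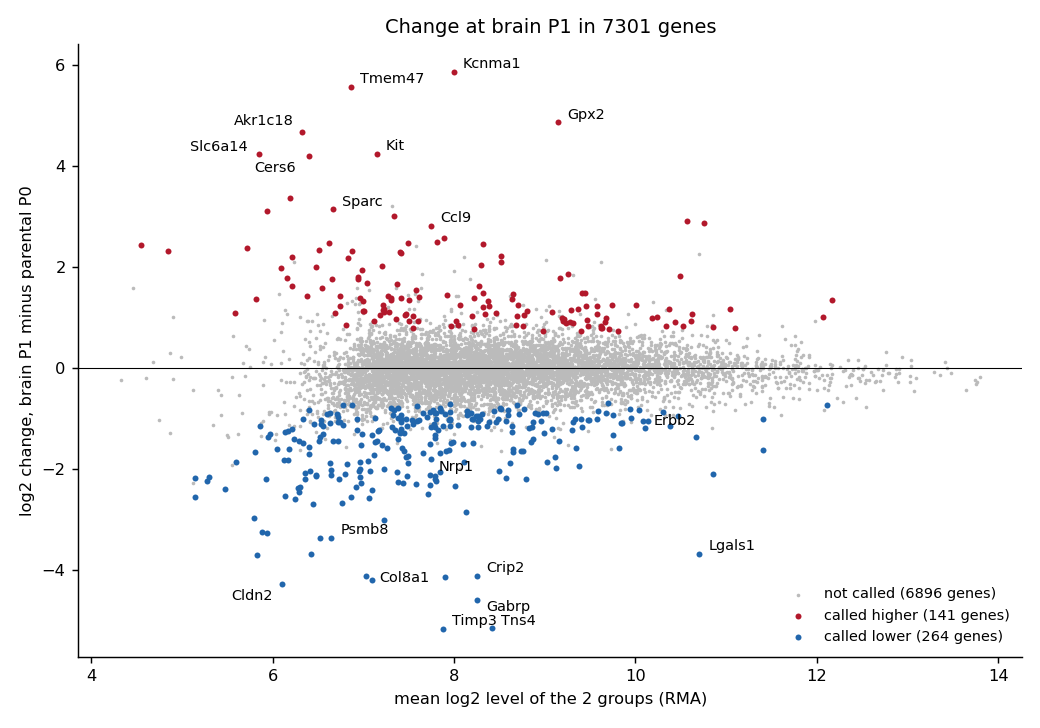
Each point is 1 of 7301 genes, with its mean log2 level over parental P0 and brain P1 (2 arrays each) on the horizontal axis and its log2 change on the vertical axis. Red points are the 141 genes called higher and blue points the 264 called lower, and the farthest points reach 5.87 (Kcnma1) and -5.16 (Timp3).

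How many genes were called hung on single arrays. Without parental P0 replicate 1 there were 49 higher and 111 lower, without parental P0 replicate 2 86 and 91, without brain P1 replicate 1 34 and 94, and without brain P1 replicate 2 36 and 59. In all of these 4 fits and the full one, 77 genes were called, 28 higher and 49 lower, and most genes named first below are among them. When the P1 array of the second brain experiment was entered as a further brain P1 array, limma called 0 genes higher and 1 lower, although 392 and 555 genes had an unadjusted p under 0.05. The gene that remained called was Arrb1, which encodes a beta-arrestin that ends the signaling of many receptors. Arrb1 read 7.72 and 7.59 in parental cells, 5.38 and 5.91 at brain P1 and 5.83 on the array of the second experiment. In the main limma fit, where that array was not counted as brain P1, its change was -2.01 (SE 0.20, adjusted p = 0.0012). It falls outside the rule for named genes and was named after its values were seen.

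Among the increases, a group of genes went from dim to clearly detected. Kcnma1, the pore of a calcium-activated potassium channel, read 5.27 and 4.84 in parental cells and 10.31 and 11.55 at brain P1, a change of 5.87 (SE 0.57, adjusted p = 0.001). Tmem47, a small membrane protein of epithelial junctions, went from 4.24 and 3.91 to 9.62 and 9.68 (change 5.57, SE 0.26, adjusted p = 4.1e-05). Gpx2, a glutathione peroxidase that removes hydroperoxides in epithelia, went from 6.74 and 6.68 to 11.88 and 11.28 (change 4.87, SE 0.24, adjusted p = 4.1e-05). For these 3 genes the gap between the groups was more than 3 times the gap within either pair. Akr1c18, which inactivates progesterone, read 4.36 and 3.62 and then 8.67 and 8.65 (change 4.67, adjusted p = 0.0017). The receptor tyrosine kinase gene Kit, a marker of luminal progenitors in the mammary gland, read 4.91 and 5.12 and then 9.15 and 9.39 (change 4.25, adjusted p = 4.6e-05). Slc6a14, a sodium- and chloride-driven carrier of neutral and cationic amino acids, went from 3.34 and 4.11 to 7.92 and 8.0 (change 4.24, adjusted p = 0.00028). Each of these was at or under 5.12 on both parental arrays and over 7.9 on both brain P1 arrays. The ceramide synthase gene Cers6 rose by 4.20, Nt5dc2 by 3.37, Sparc, a secreted protein that binds collagen, by 3.15, and Adgrf4, an adhesion receptor of the G protein-coupled class, by 3.11. Prss12, a serine protease known from synapses, rose by 3.02, the chemokine gene Ccl9 by 2.82, from 6.42 and 6.25 to 8.76 and 9.55, and Sirpa, the receptor of the surface protein Cd47, by 2.58, from 6.33 and 6.86 to 9.16 and 9.20.

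Chil1 and Ptgs2 were the bright genes of this set and the least settled. The parental arrays differed in Chil1, a secreted chitinase-like protein, at 7.89 and 10.33 against 11.97 and 12.07 at brain P1 (change 2.91, adjusted p = 0.038), and in Ptgs2, the inducible cyclooxygenase of prostaglandin synthesis, at 10.47 and 8.16 against 12.47 and 11.93 (change 2.88, adjusted p = 0.046). Of the 15 largest increases 12 stayed called whichever array was omitted. Chil1 was lost without parental P0 replicate 1 (adjusted p = 0.067, change 1.69), Ptgs2 without parental P0 replicate 2 (0.16, 1.73), both without brain P1 replicate 1 (up to 0.21), and both with Adgrf4 without brain P1 replicate 2 (up to 0.18).

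The largest decrease was that of Timp3. Timp3, a matrix-bound inhibitor of metalloproteinases, fell from 10.93 and 9.98 to 5.10 and 5.50 (change -5.16, SE 0.32, adjusted p = 7.5e-05). Tns4, which links integrin tails in focal adhesions, fell from 11.09 and 10.88 to 6.17 and 5.51 (change -5.15, SE 0.27, adjusted p = 4.5e-05). Both were among the brighter genes of the parental cells and dim on both brain P1 arrays. Cldn2, the claudin of leaky, cation-permeable tight junctions, went from 8.02 and 8.44 to 4.29 and 3.64 (change -4.27, adjusted p = 0.00029). Col8a1, a short-chain collagen, read 9.97 and 9.94 and then 5.58 and 6.08 (change -4.13, adjusted p = 9e-05). The small heat shock protein gene Hspb8 read 8.94 and 9.23 and then 4.84 and 5.09 (change -4.12, adjusted p = 4.1e-05), and Crip2, a LIM domain protein, 10.31 and 10.31 and then 6.54 and 5.85 (change -4.11, adjusted p = 7.5e-05). No brain P1 array of these genes came within 3 log2 units of a parental array. Lgals1, the secreted lectin galectin-1, was still bright after its decrease, at 12.56 and 12.51 before and 8.97 and 8.77 after (change -3.67, adjusted p = 0.00051). Ecrg4, a precursor of secreted peptides, fell by 4.20, and Ramp1, the partner that turns the calcitonin-like receptor into a receptor for the neuropeptide CGRP, fell by 3.35. The other decreases of this size were Ms4a6d at -3.69, Psmb8, an immunoproteasome subunit, at -3.35, AW112010 at -3.26 and Ccdc68 at -3.24.

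Gabrp, a subunit of the GABA-A receptor that mammary epithelium expresses, was at 10.34 and 10.75 in parental cells and 5.75 and 6.17 at brain P1 (change -4.59, SE 0.68, adjusted p = 0.0081). Aldh3a1, an aldehyde dehydrogenase, was at 8.57 and 7.95 and then 4.67 and 4.50 (change -3.68, adjusted p = 0.01). They were the only 2 of the 15 largest decreases with a call that an omission ended: Aldh3a1 without parental P0 replicate 1 (adjusted p = 0.071), Gabrp without parental P0 replicate 2 (0.058), and both without brain P1 replicate 1 (up to 0.059) and without brain P1 replicate 2 (up to 0.075).

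**Figure D2:**
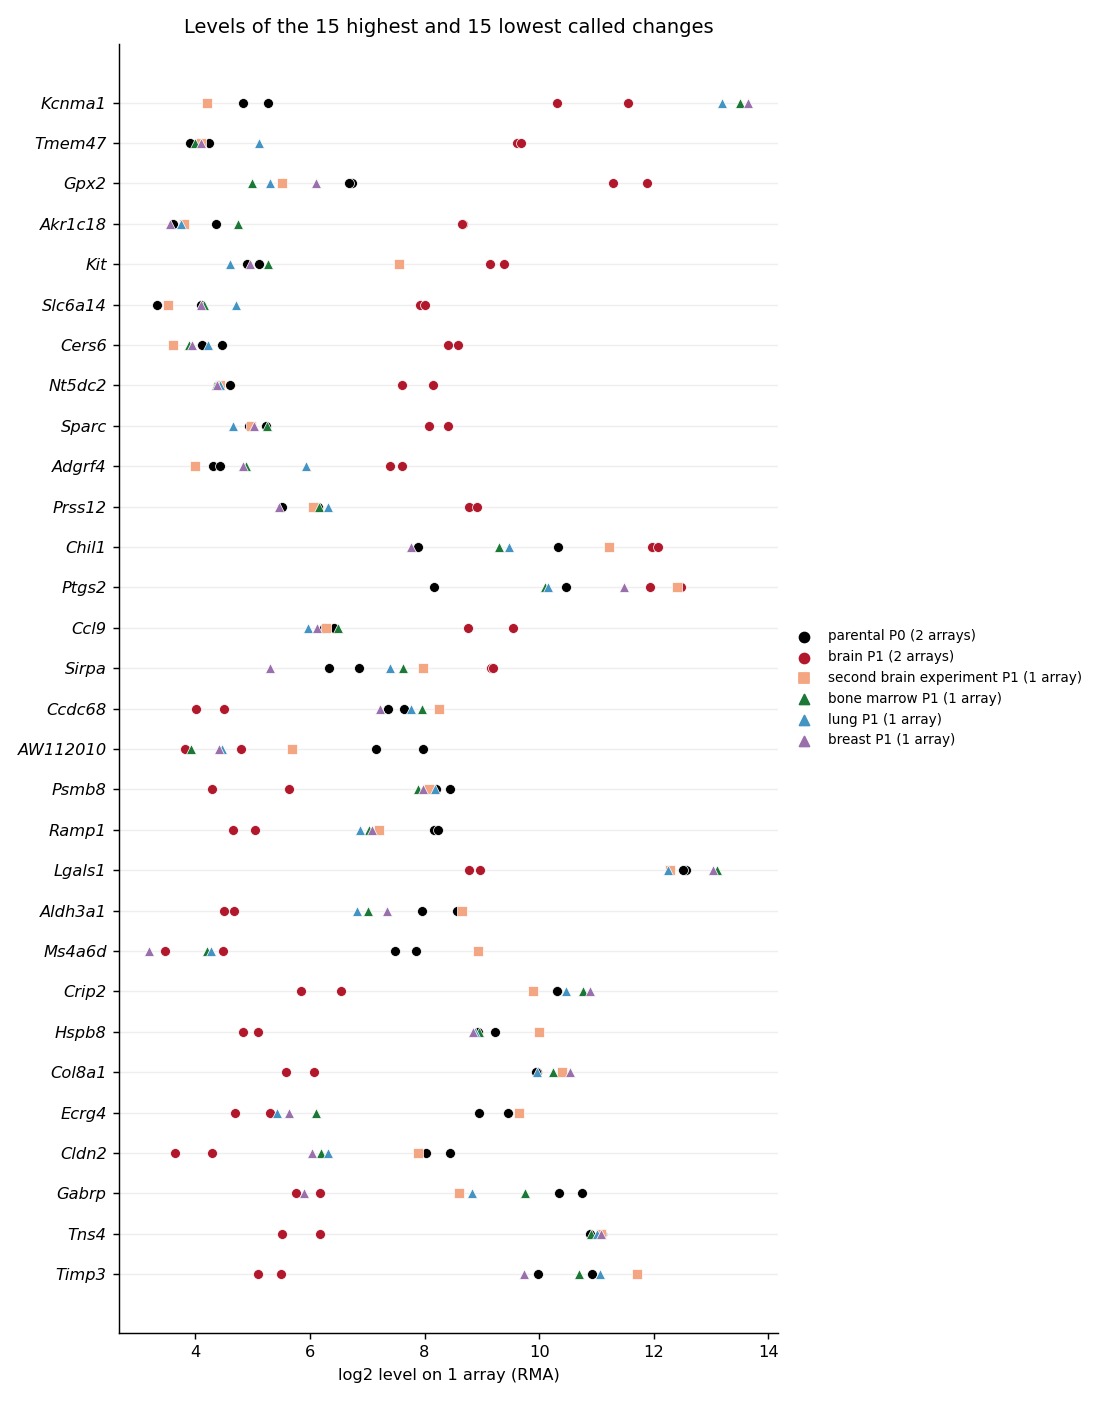
Log2 level of the 15 highest and 15 lowest called changes on each array, 1 row per gene: 2 parental P0 arrays (black), 2 brain P1 arrays (red), and the lone P1 arrays of the second brain experiment (square), bone marrow, lung and breast (triangles). The red points stand clear of the black ones in every row, which was a condition of the choice of genes. In the rows of Tmem47, Gpx2, Tns4 and Timp3 the 4 lone arrays lie nearer to the parental cells than to brain P1.

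The same 4 arrays were set beside the P1 arrays of other tissues and of the second brain experiment, 1 array each. Differences of brain P1 from the mean of bone marrow, lung and breast P1 were called in 343 genes higher (4.7%) and 518 lower (7.09%), and differences from the second brain P1 in 175 higher (2.4%) and 335 lower (4.59%); the lone arrays were assumed in the fit to vary like the pairs. Tmem47 was at 4.00 on bone marrow, 5.11 on lung, 4.10 on breast and 4.10 in the second experiment, and brain P1 exceeded the other tissues by 5.25 (adjusted p = 1.4e-05) and the second experiment by 5.55 (adjusted p = 0.00014). Gpx2 was at 4.99 to 6.11 on these 4 arrays, and brain P1 exceeded the other tissues by 6.12 (adjusted p = 5.3e-06) and the second experiment by 6.07 (adjusted p = 6.3e-05). Timp3 read 10.69 (bone marrow), 11.06 (lung), 9.74 (breast) and 11.71 (the second experiment), and brain P1 minus these was -5.20 and -6.41 (adjusted p = 2.6e-05 and 0.00016). Since each tissue and the second experiment had 1 array and the spread came from technical replicates, these p-values, here and below, compare arrays and do not show a difference between tissues or between experiments.

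Other genes had a different pattern. Kcnma1 was higher still on the other tissues, at 13.50 on bone marrow, 13.19 on lung and 13.64 on breast, and brain P1 minus their mean was -2.51 (adjusted p = 0.019), whereas the second brain experiment read 4.21, below brain P1 by 6.72 (adjusted p = 0.0015). Kit stood at 7.56 in the second brain experiment and between 4.60 and 5.27 on the other tissues, so brain P1 differed from the former by 1.71 (adjusted p = 0.012) and from the latter by 4.33 (adjusted p = 1.5e-05). Ecrg4 was 5.42 to 6.11 on the other tissues, with a difference of brain P1 from them of -0.72 (adjusted p = 0.2), and 9.64 in the second brain experiment, with a difference of -4.65 (adjusted p = 0.00098). Ms4a6d was 3.20 to 4.28 on the other tissues and 8.93 in the second experiment, with differences of 0.08 (adjusted p = 0.94) and -4.95 (adjusted p = 0.0018). For Ptgs2 the second experiment read 12.41, a difference of -0.22 (adjusted p = 0.92), and for Edn1 8.95, a difference of 0.11 (adjusted p = 0.92); neither p shows that the 2 experiments had equal levels.

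**Figure D3:**
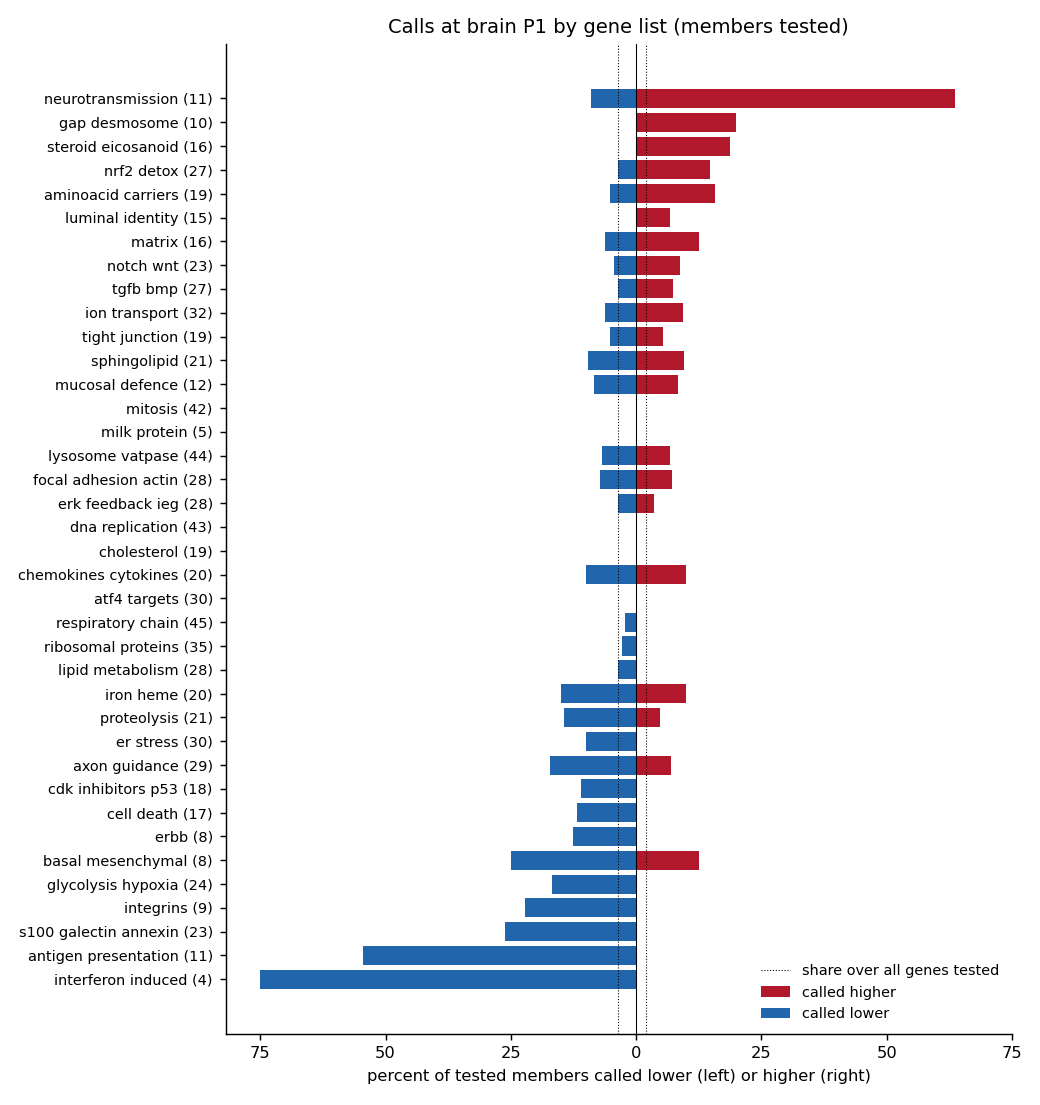
Percent of the tested members of each gene list, cell type markers and the study's own lists left out, called higher (red, right) or lower (blue, left) at brain P1, with the number of members tested in brackets. Dotted lines mark the share over all 7301 genes, 1.93% higher and 3.62% lower, and antigen presentation and interferon-induced genes reach farthest to the left with 6 of 11 and 3 of 4 members called.

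Genes for the display of peptides to T cells were lower together. Cells cut proteins in the immunoproteasome, pump the peptides through the TAP transporter and load them on class I molecules, and interferon raises the genes of all these steps. Of 22 listed genes, 16 had a probe set of their own, 11 were bright enough to test, and 6 were called lower and 0 higher, with all 11 values below 0 and a median of -1.09. At an unadjusted p under 0.05 limma gave 0 higher and 9 lower. Over all genes tested, 3.62% were called lower and 1.93% higher. Psmb8, a catalytic subunit of the immunoproteasome, fell from 8.20 and 8.44 to 5.63 and 4.30 (change -3.35, SE 0.36, adjusted p = 0.0016). Psmb9, its sister subunit, went from 7.86 and 8.09 to 6.28 and 6.01 (change -1.83, adjusted p = 0.01), and Tap2, a chain of the transporter, from 7.69 and 8.10 to 6.29 and 5.78 (change -1.86, adjusted p = 0.0032). For these genes the lower parental array exceeded the higher brain P1 array by more than 1.3. H2-Q4, a class I gene whose probes may also read its close relatives of the H2-Q family, went from 8.20 and 8.60 to 6.30 and 6.39 (change -2.06, adjusted p = 0.0022). The activator subunits Psme1 and Psme2 were at -1.16 and -1.09 (adjusted p = 0.0057 and 0.039), and Psme2, on chromosome 14, was not called with chromosome medians subtracted (adjusted p = 0.14).

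Members that did not pass were the remaining catalytic subunit Psmb10 at -0.98 (adjusted p = 0.067), the loading chaperone Tapbp at -1.07 (0.067), the trimming peptidase Erap1 at -0.67, the transactivator Nlrc5 at -0.25 and the shared light chain B2m at -0.35, from 12.46 and 12.55 to 12.09 and 12.21. Brain P1 also lay below the mean of bone marrow, lung and breast P1 in Psmb8 (difference -3.04, adjusted p = 0.0012), H2-Q4 (-1.52, 0.0035) and Tap2 (-1.67, 0.0022), and below the second brain experiment (-3.11, -1.72 and -1.47, with adjusted p = 0.0059, 0.01 and 0.019). Psmb8, H2-Q4 and Tap2 stayed called whichever array was left out. Psme2 lost its call under each omission (highest adjusted p = 0.21 without brain P1 replicate 1, change -0.94), Psmb9 without either parental array and without brain P1 replicate 2, and Psme1 without brain P1 replicate 2.

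Of 28 genes that type I interferon induces, 25 had a probe set but only 4 were bright enough to test. Of these, 3 were called lower and 0 higher (unadjusted: 0 higher and 3 lower), against 3.62% and 1.93% over all genes tested. Oasl2 and Usp18 were dim at brain P1, at means of 4.87 and 4.98, and were tested only because another group was brighter. The filter could thus favor decreases in this list. Oasl2, an oligoadenylate synthetase-like protein, went from 7.08 and 7.72 to 5.33 and 4.42 (change -2.53, SE 0.30, adjusted p = 0.0029). Usp18, which removes the ubiquitin-like protein Isg15, fell by 1.66 (adjusted p = 0.017) and Ddx58, the RNA sensor RIG-I, stood at -1.05 (adjusted p = 0.017), while Ifi35 was at -0.34 (adjusted p = 0.51). Beyond the list, and named after its values were seen, the signal chain that interferon receptors share held lower values: the kinase genes Jak1, from 10.05 and 9.93 to 8.98 and 8.96 (change -1.02, adjusted p = 0.0099), and Jak2, from 8.11 and 7.99 to 6.48 and 6.47 (change -1.58, adjusted p = 0.0071), and the factor Irf1 (change -1.01, adjusted p = 0.041). Only Oasl2 of these stayed called throughout. Without parental P0 replicate 1 the calls of Ddx58, Jak1, Jak2 and Irf1 ended, without parental P0 replicate 2 those of Usp18, Ddx58 and Irf1, and without either brain P1 array all but that of Oasl2 (highest adjusted p = 0.23 for Irf1 without brain P1 replicate 1, change -0.76). Ddx58 and Jak1 lie on chromosome 4, whose genes were lower as a whole, and with chromosome medians subtracted their adjusted p was 0.32 and 0.26.

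**Figure D4:**
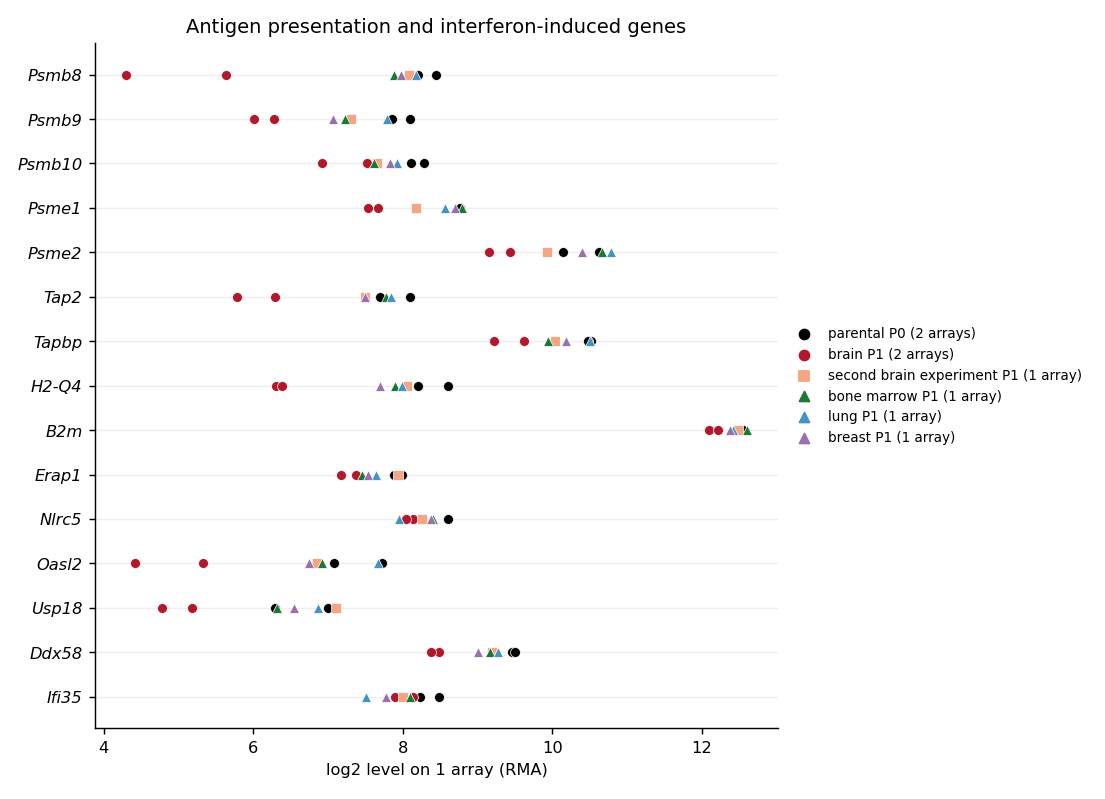
Log2 level of the 11 tested genes of antigen presentation and the 4 of interferon induction on single arrays: parental P0 (black), brain P1 (red), and the lone P1 arrays of the second brain experiment, bone marrow, lung and breast. Psmb8, Tap2, H2-Q4 and Oasl2 at brain P1 lie below all other arrays shown, and B2m lies near 12 on all of them.

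Genes of contacts between cells and with the matrix gave few calls per list, too few to be read as a change of a family. Over all genes tested 1.93% were called higher and 3.62% lower. Of 19 tested genes of tight junctions 1 rose, Tmem47, and 1 fell, Cldn2, with a median of 0.06, and Cldn3, Cldn4 and Cldn7 were at 0.60, -0.26 and 0.06, none called. Gjb2, the gap junction protein connexin 26, rose from 3.41 and 3.96 to 5.72 and 6.30 (change 2.32, adjusted p = 0.0033), and all 4 of these levels are dim. The desmosome plaque gene Dsp rose from 9.44 and 9.44 to 10.15 and 10.19 (change 0.73, adjusted p = 0.043), which made 2 of 10 genes of gap junctions and desmosomes; with the median of its chromosome 13 subtracted Dsp was not called (adjusted p = 0.13). Among 9 integrin subunits, Itgb5 fell from 10.19 and 10.65 to 9.11 and 9.05 (change -1.33, adjusted p = 0.015) and Itgb6, whose product activates latent TGF-beta, from 7.08 and 7.31 to 6.18 and 6.30 (change -0.96, adjusted p = 0.04). Neither subunit is the common beta chain: Itgb1 was at 0.23. Of 28 genes of focal adhesions and actin, Tns4 and Pdlim1, a PDZ and LIM protein of stress fibers that went from 10.71 and 10.51 to 9.0 and 9.07, fell, and Lima1 and Cdc42ep3 rose by 0.89 and 1.08. Tmem47, Cldn2, Gjb2, Tns4 and Pdlim1 held under all omissions; Dsp and Itgb6 under none, Itgb5 only without parental P0 replicate 1, Lima1 only without parental P0 replicate 2, and Cdc42ep3 under none (highest adjusted p = 0.24 for Lima1 without brain P1 replicate 1, change 0.77).

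In the matrix itself 2 of 16 tested genes rose and 1 fell, with a median of -0.36. Sparc rose from 5.24 and 4.94 to 8.41 and 8.07 (SE 0.25, adjusted p = 0.00031), the laminin chain Lama3 rose by 1.35 (adjusted p = 0.034), and Col8a1 fell as given above. Fibronectin, Fn1, read 11.94 and 10.96 and then 10.10 and 10.41, a change of -1.19 that did not pass (adjusted p = 0.37). Of 21 proteases and inhibitors 1 rose and 3 fell. The inhibitors went in opposite directions, Timp3 down and Timp2 up by 0.80, from 10.71 and 10.69 to 11.51 and 11.49 (adjusted p = 0.025). Plau, the urokinase that generates plasmin, fell from 9.37 and 8.36 to 7.02 and 6.44 (change -2.13, adjusted p = 0.016). Adamts5, an aggrecan-cleaving protease, fell from 6.23 and 6.51 to 4.21 and 4.24 (change -2.15, adjusted p = 0.0026), with all 4 levels dim. Calls of Lama3 and Timp2 were lost with every omission and that of Plau without parental P0 replicate 1 and without brain P1 replicate 2 (highest adjusted p = 0.19 for Lama3 without brain P1 replicate 1, change 1.18).

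Among calcium-binding S100 proteins, galectins and annexins, 6 of 23 tested were called lower and 0 higher, 18 values lay below 0 and 5 above, the median was -0.35, and limma gave 1 higher and 11 lower at an unadjusted p under 0.05. Lgals1 changed most. S100a16 went from 8.94 and 8.51 to 6.44 and 6.41 (change -2.30, adjusted p = 0.00092) and S100a4, a protein associated with motility, from 10.07 and 9.05 to 7.47 and 7.89 (change -1.88, adjusted p = 0.017). S100a14 fell by 2.38, Lgals3bp, a secreted partner of galectin-3, fell by 2.03 and Anxa11 fell by 0.78, whereas S100a6 was at 0.47 (adjusted p = 0.49) and Anxa1 at -0.58 (adjusted p = 0.093). S100a4, S100a14 and S100a16 all lie on chromosome 3, and Anxa11 on chromosome 14, both lower as a whole; with chromosome medians subtracted 4 members were called lower, without S100a14 (adjusted p = 0.064) and Anxa11 (adjusted p = 0.25). Only Lgals1 and S100a16 held throughout: S100a4 and S100a14 were lost without parental P0 replicate 1 and without either brain P1 array, Lgals3bp without parental P0 replicate 2 and brain P1 replicate 2, and Anxa11 with each omission (highest adjusted p = 0.27 without brain P1 replicate 2, change -0.70).

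Kit apart, mammary identity genes gave no call. Of 15 luminal genes tested only Kit was called, and the lineage factors Gata3 and Elf5 were at 0.73 (adjusted p = 0.18) and 0.17 (adjusted p = 0.75). None of 5 milk protein and secretion genes passed with limma (unadjusted: 2 higher and 1 lower), although Ltf, lactoferrin, read 8.47 and 10.67 and then 11.78 and 11.90. Of 8 basal and mesenchymal genes Sparc rose and Lgals1 and S100a4 fell, so the list had no common direction; Vim was at -0.58 (adjusted p = 0.28).

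Erbb2, which the array measures as the mouse gene and possibly also as the closely related rat transgene, fell from 10.69 and 10.70 to 9.56 and 9.46 (change -1.19, SE 0.21, adjusted p = 0.015). It was 9.83 (bone marrow), 10.30 (lung), 9.78 (breast) and 9.01 (the second brain experiment), and brain P1 differed from these by -0.46 (adjusted p = 0.17) and 0.49 (adjusted p = 0.31). The other 7 receptors and ligands of the family gave no call, with Egfr at 0.54 and Erbb3 at -0.40. Of 28 ERK feedback and immediate early genes, Nr4a2, an orphan nuclear receptor, rose by 2.05 (adjusted p = 0.01) and Spry1, which damps receptor tyrosine kinase signaling, fell from 8.93 and 8.94 to 7.79 and 7.80 (change -1.14, adjusted p = 0.015).

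No gene of cell division machinery passed the test, where 1.93% of all genes were called higher and 3.62% lower. Of 42 mitosis genes 0 were called (limma, unadjusted: 0 higher and 7 lower) and of 43 replication genes 0 (1 higher and 2 lower), with medians of -0.15 and -0.10 and Mki67 at 10.50 and 10.40 against 10.28 and 10.45. Values lay below 0 in 33 mitosis genes and above 0 in 9, and in 29 and 14 replication genes. In simulated data the same fit called 1 of 50 genes changed 1.5-fold and 22 of 50 changed 2-fold. Fewer genes changed there than were called in the data, so these rates may not carry over to the 2 lists. Small changes could still be missed. Among 18 cell cycle inhibitors and p53 targets the inhibitor Cdkn2c fell by 1.22 and Rb1 fell by 1.27, both on chromosomes that were lower as a whole, and with those medians subtracted their adjusted p was 0.12 and 0.1. Of 17 cell death genes Bnip3, a mitophagy receptor, fell by 2.12 and Bcl2l11, the pro-apoptotic protein Bim, fell by 1.07. Apart from Kit, no call of the preceding paragraph and this one held under all omissions: Erbb2, Spry1, Rb1 and Bcl2l11 were lost each time, Bnip3 in every omission except that of parental P0 replicate 1, Nr4a2 without parental P0 replicate 2 and brain P1 replicate 1, and Cdkn2c without brain P1 replicate 2 (highest adjusted p = 0.22 for Bnip3 without brain P1 replicate 2, change -1.81).

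Secreted signals were mixed. The list of chemokines, cytokines and growth factors had a median of 0.99 over 20 tested genes, and 2 rose and 2 fell. Over all genes the median was -0.02. Edn1 and Il33, with parental means of 6.56 and 5.10, could be tested only because another group was brighter. The filter could thus raise the median of this list. Cxcl1 at 1.07 (adjusted p = 0.22) and Ccl20 at 1.25 (adjusted p = 0.29) did not pass, with parental arrays at 8.66 and 10.10 and at 7.22 and 9.06. Edn1, the vasoconstrictor endothelin-1, rose from 6.16 and 6.95 to 8.80 and 9.31 (change 2.50, SE 0.35, adjusted p = 0.0061). Il33, an alarmin of the interleukin-1 family, rose from 5.45 and 4.75 to 7.10 and 7.07 (change 1.98, adjusted p = 0.034). Ccl5, a T cell chemokine, fell from 7.95 and 7.14 to 5.61 and 5.20 (change -2.14, adjusted p = 0.0081) and Pdgfa from 10.86 and 11.02 to 10.11 and 9.88 (change -0.94, adjusted p = 0.03). Ccl9, the chemokine with the largest change, was not a member of the list.

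Among 27 genes of TGF-beta, activin and BMP signaling, the ligand Tgfb2 rose from 8.41 and 8.92 to 10.05 and 10.28 (change 1.5, adjusted p = 0.017) and Ltbp1, which stores latent TGF-beta in the matrix, by 0.85. Inhbb, an activin subunit, fell from 8.48 and 8.81 to 6.85 and 6.84 (change -1.80, adjusted p = 0.0025). Of 23 Notch and Wnt genes, the receptor Fzd2 and the planar polarity gene Vangl2 rose by 0.94 and 1.37 and the Notch target Hey1 on chromosome 3 fell by 1.88 (adjusted p = 0.11 with chromosome medians subtracted). In the steroid and eicosanoid list 3 of 16 rose and 0 fell (unadjusted: 5 higher and 1 lower), where 1.93% of all genes were called higher. The 3 were Akr1c18, Ptgs2 and the prostaglandin carrier Slco2a1, from 10.09 and 9.87 to 10.95 and 10.84. With 1 array omitted, Akr1c18 and Inhbb held every time; Edn1 was lost only without brain P1 replicate 2 (adjusted p = 0.059), Ccl5 without parental P0 replicate 1 and brain P1 replicate 2, Tgfb2 in every omission except that of parental P0 replicate 2, Ptgs2 in every omission except that of parental P0 replicate 1, and Il33, Pdgfa, Slco2a1, Ltbp1, Fzd2, Vangl2 and Hey1 each time (highest adjusted p = 0.24 for Hey1 without brain P1 replicate 2, change -1.73).

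Genes known from neurons changed in both directions. A list of transmitter receptors, synaptic proteins and neuronal enzymes had 11 tested members of 51, of which 7 were called higher and 1 lower, with a median of 2.01. The study had named the 7 from these arrays, so their count is not independent evidence of a direction. All 7 had a parental mean under 7.33 and could be tested only because another group was brighter. The filter thus favored increases in this list, both in the count and in the median. Maoa, the monoamine oxidase that breaks down serotonin and noradrenaline, rose from 6.07 and 6.32 to 8.02 and 8.40 (change 2.02, SE 0.22, adjusted p = 0.0016). The muscarinic receptor gene Chrm3 rose from 5.99 and 5.56 to 7.56 and 7.51 (change 1.76, adjusted p = 0.0031), and Neto2, an auxiliary subunit of kainate receptors, from 6.20 and 6.29 to 8.48 and 8.63 (change 2.31, adjusted p = 0.0012). Each lay above the other tissues at P1, Maoa by 1.57 (adjusted p = 0.0023), Chrm3 by 2.30 (0.0003) and Neto2 by 1.96 (0.0012), and above the second brain experiment by 1.31 (0.024), 1.16 (0.035) and 2.14 (0.0049). Prss12 belongs to the same group, as do the protease gene Klk6 at 2.48, Kctd12b at 2.28 and Syne1, a nuclear envelope spectrin-repeat protein, at 2.01. Gabrp was the member that fell. Maoa, Chrm3, Neto2 and Prss12 held under all omissions, Syne1 under none, and Klk6, Kctd12b and Gabrp only without parental P0 replicate 1 (highest adjusted p = 0.14 for Syne1 without brain P1 replicate 1, change 1.95).

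Guidance genes, which steer axons and also vessels, had more decreases. Of 29 tested 2 rose and 5 fell, with a median of -0.31, where 1.93% of all genes were called higher and 3.62% lower. Nrp1, the co-receptor of class 3 semaphorins and of VEGF, fell from 8.79 and 8.79 to 6.55 and 6.81 (change -2.11, SE 0.18, adjusted p = 0.00048). Sema4a fell from 7.52 and 7.55 to 5.22 and 5.61 (change -2.11, adjusted p = 0.0034), Unc5b, a netrin receptor, from 8.63 and 8.05 to 5.96 and 5.59 (change -2.56, adjusted p = 0.0065), and the netrin gene Ntn1 itself from 9.52 and 9.60 to 8.18 and 7.67 (change -1.64, adjusted p = 0.014). Sema7a fell by 2.33 and read 5.38 to 5.98 on bone marrow, lung and breast, while brain P1 lay 1.07 above their mean (adjusted p = 0.052). In contrast Slit2, a ligand of Robo receptors, rose from 5.48 and 5.21 to 7.75 and 7.63 (change 2.35, adjusted p = 0.0071) and Sema3b from 5.92 and 5.56 to 8.06 and 7.79 (change 2.18, adjusted p = 0.0064). Brain P1 exceeded bone marrow, lung and breast by 3.46 in Slit2 (adjusted p = 0.00039) and by 2.53 in Sema3b (adjusted p = 0.0013). Only Nrp1 and Sema4a held throughout: Unc5b and Ntn1 were lost without parental P0 replicate 1, Sema3b, Slit2 and Ntn1 without parental P0 replicate 2, Sema3b and Slit2 without brain P1 replicate 1, and Slit2, Sema7a, Unc5b and Ntn1 without brain P1 replicate 2 (highest adjusted p = 0.11 for Ntn1, change -1.38).

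The 2 lists of neurobiological genes that the study itself picked as raised or lowered on these arrays gave 13 of 27 tested genes called higher and 9 of 19 called lower, with medians of 1.06 and -1.07. Since they were chosen on these samples, their direction is not independent evidence. Besides genes above, they hold Pcsk6, a proprotein convertase, at 1.02 (adjusted p = 0.045) and Ptprf, a receptor phosphatase on chromosome 4, at -1.06 (adjusted p = 0.026). Both calls were lost with every omission (highest adjusted p = 0.21 for Pcsk6 and 0.16 for Ptprf, each without brain P1 replicate 1), and with chromosome medians subtracted Ptprf was at -0.46 (adjusted p = 0.26).

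In redox defense, Gpx2 had the largest change. Of 27 tested genes that the factor Nrf2 controls, 4 rose and 1 fell, with a median of 0.05. Among all genes tested 1.93% were called higher and 3.62% lower. The 2 subunits of the enzyme that starts glutathione synthesis both rose, Gclc from 9.15 and 9.27 to 10.28 and 9.98 (change 0.92, adjusted p = 0.037) and Gclm from 8.97 and 8.95 to 10.12 and 10.26 (change 1.23, adjusted p = 0.016). Hmox1, heme oxygenase-1, rose from 6.71 and 6.91 to 8.56 and 8.15 (change 1.55, adjusted p = 0.025). Txnrd1 and Srxn1, equally typical targets, were at -0.01 and 0.18, and the cystine carrier gene Slc7a11 at 0.86 (adjusted p = 0.14). Gstm1, a glutathione transferase, fell from 8.27 and 8.75 to 6.37 and 6.16 (change -2.25, SE 0.27, adjusted p = 0.0031) and was as low on bone marrow, lung and breast, at 6.68, 6.27 and 6.08.

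Iron and heme genes, 20 tested, had 2 increases and 3 decreases. Cp, the copper ferroxidase ceruloplasmin that is also an acute phase protein, fell from 11.50 and 12.33 to 9.73 and 9.90 (change -2.10, adjusted p = 0.0043). Trf, transferrin, fell by 1.35 and the ferritin light chain gene Ftl1, whose probes can read processed copies, fell by 1.63, while the metalloreductase gene Steap2 rose by 1.5. Gpx2, Gstm1 and Cp held under all omissions. Gclc, Gclm, Hmox1, Ftl1 and Steap2 were lost each time and Trf in every omission except that of parental P0 replicate 1 (highest adjusted p = 0.21 for Gclc without brain P1 replicate 1, change 0.77).

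Carriers and pumps of the plasma membrane moved as follows. Of 19 amino acid carriers 3 rose and 1 fell: Slc6a14, the glutamate carrier gene Slc1a1, from 7.08 and 7.83 to 9.48 and 9.65 (change 2.11, adjusted p = 0.033), and Slc38a1, a glutamine carrier, from 6.87 and 6.95 to 8.41 and 8.24 (change 1.41, adjusted p = 0.0049), against Slc7a7, which exchanges cationic for neutral amino acids, from 7.53 and 8.05 to 4.72 and 5.49 (change -2.69, adjusted p = 0.0016). Of 32 ion channels and pumps 3 rose and 2 fell. Atp1b1, the beta subunit of the sodium pump, went from 9.24 and 9.91 to 11.48 and 11.33 (change 1.83, SE 0.23, adjusted p = 0.0038), and Atp2c2, a calcium and manganese pump of the secretory pathway, from 7.17 and 7.74 to 9.20 and 8.97 (change 1.63, adjusted p = 0.0096). Trpv6, an epithelial calcium channel, fell by 2.23 and Clic4 fell by 1.02. Clic4 lies on chromosome 4, and with chromosome medians subtracted it was at -0.42 (adjusted p = 0.35). Brain P1 was also above the second brain experiment in Slc1a1 by 3.63 (adjusted p = 0.0074) and in Atp1b1 by 2.13 (adjusted p = 0.0049). Slc6a14, Slc38a1, Slc7a7, Kcnma1 and Atp1b1 held throughout; Slc1a1 and Clic4 were lost each time, Atp2c2 in every omission except that of parental P0 replicate 2, and Trpv6 without parental P0 replicate 2 and brain P1 replicate 1 (highest adjusted p = 0.28 for Clic4 without brain P1 replicate 2, change -0.84).

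In the list of lysosomal enzymes and subunits of the vacuolar proton pump, 3 of 44 rose and 3 fell, and 5 of the 6 belong to the pump. Its membrane subunit a comes in several forms: Atp6v0a1 rose from 8.85 and 9.36 to 10.49 and 10.26 (change 1.26, adjusted p = 0.015), Atp6v0a4 from 6.06 and 6.35 to 8.01 and 7.76 (change 1.68, adjusted p = 0.0049), and Tcirg1, the a3 form, fell from 9.15 and 9.38 to 8.16 and 7.86 (change -1.26, adjusted p = 0.014). Its subunit B, part of the head that binds ATP, split in the same way, with Atp6v1b1 at -2.05 and Atp6v1b2 at 0.93, from 10.07 and 10.23 to 11.10 and 11.06. Forms of the same subunit thus changed in opposite directions. The protease gene Lgmn fell by 1.86. Of 21 sphingolipid genes, Cers6 and Degs1, which act in ceramide synthesis, rose by 4.20 and 0.81, and Sphk1, which makes sphingosine-1-phosphate, fell from 7.85 and 7.84 to 6.17 and 5.33 (change -2.10, adjusted p = 0.0057), and the ceramidase gene Asah2 fell by 1.17. Atp6v0a4, Cers6 and Sphk1 held under all omissions, Atp6v1b2, Atp6v1b1, Degs1 and Asah2 under none, Atp6v0a1 only without parental P0 replicate 2, Tcirg1 only without brain P1 replicate 1 and Lgmn only without parental P0 replicate 1 (highest adjusted p = 0.19 for Degs1 without brain P1 replicate 1, change 0.76).

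Metabolic and folding genes had few calls, and these were decreases. Among all genes tested 3.62% were called lower and 1.93% higher. Of 24 genes of glycolysis and hypoxia 4 fell and 0 rose (limma, unadjusted: 2 higher and 6 lower): the aldolase gene Aldoc, from 8.60 and 10.51 to 6.55 and 6.87 (change -2.84, adjusted p = 0.017), Ndrg1, from 8.74 and 8.72 to 7.05 and 7.14 (change -1.64, adjusted p = 0.025), the collagen prolyl hydroxylase gene P4ha1 at -1.62, and Bnip3. Of 30 chaperones and stress genes of the endoplasmic reticulum 3 fell, Sdf2l1 at -1.59, Dnajc3 at -1.01 and Pdia6 at -0.99, with the main chaperone Hspa5 at -0.34. With chromosome medians subtracted only Sdf2l1 of these stayed called, since Dnajc3 on chromosome 14 had an adjusted p of 0.11 and Pdia6 on chromosome 12 of 0.058. No call was made among 30 ATF4 targets (4 higher and 3 lower unadjusted) or 19 cholesterol genes (1 and 1). Cpt2 of fatty acid oxidation, Uqcrh of the respiratory chain and Rps20 of the ribosome were the lone calls among 28, 45 and 35 genes; all 3 lie on chromosome 4 and had an adjusted p of 0.24, 0.26 and 0.78 with chromosome medians subtracted. None of these 10 calls held under all omissions: Aldoc was lost without either brain P1 array, P4ha1 without either parental array and without brain P1 replicate 2, Sdf2l1 without parental P0 replicate 2 and brain P1 replicate 2, Bnip3 in every omission except that of parental P0 replicate 1, and the other 6 each time (highest adjusted p = 0.22 for Bnip3 without brain P1 replicate 2, change -1.81).

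Changes differed by chromosome. The median change of the genes tested on each chromosome was between -0.04 and 0.06 on 13 chromosomes and beyond 0.1 in size on 7; these medians are a description with no test. Chromosome 4 stood farthest out: its 446 genes had a median of -0.56 on brain P1 replicate 1 and -0.63 on replicate 2, the parental arrays lay at -0.04 and 0.04, and 415 of the 446 genes (93%) had a change below 0. Chromosome 14 followed at -0.33 and -0.34 (246 genes), chromosome 3 at -0.29 and -0.30 (403 genes), chromosome 19 at -0.25 and -0.32 (281 genes) and chromosome 12 at -0.22 and -0.23 (270 genes). Chromosome 13 lay above 0, at 0.18 and 0.17 (265 genes), and so did X, at 0.14 and 0.13 (205 genes). On each of the 7 chromosomes both brain P1 arrays lay outside the range of the parental arrays, on the same side. The 7 were chosen by their medians on these same arrays, so this was largely fixed by the choice.

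**Figure D5:**
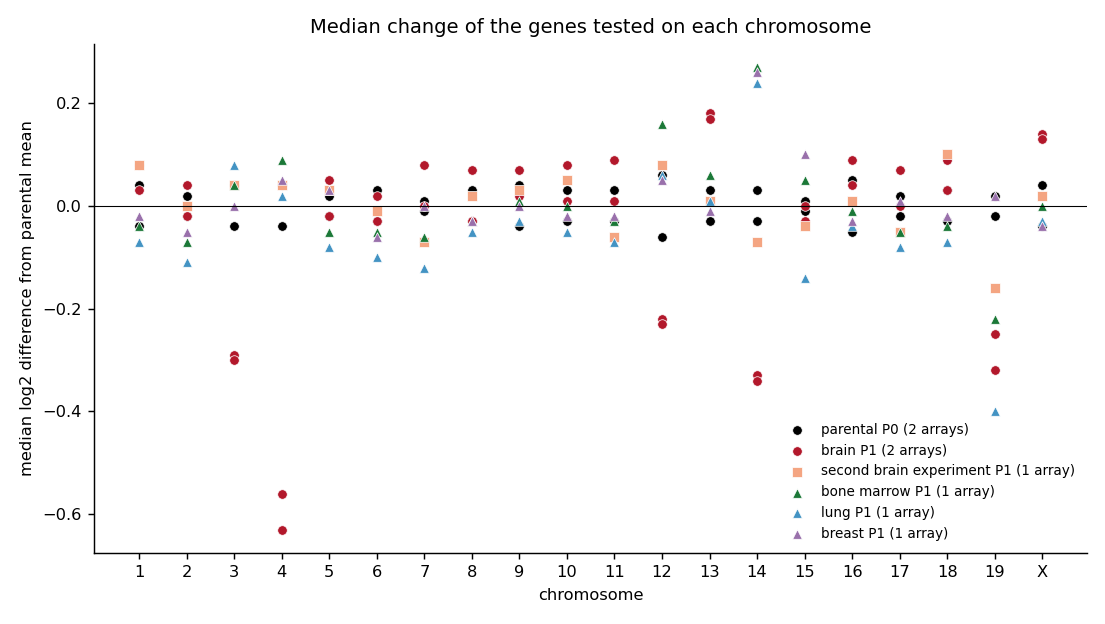
Median, over the genes tested on a chromosome, of the log2 difference of each array from the mean of the 2 parental arrays. Both brain P1 arrays (red) lie near -0.6 on chromosome 4 and below -0.2 on chromosomes 3, 12, 14 and 19, while the lone P1 arrays of the second brain experiment, bone marrow, lung and breast lie between 0.02 and 0.09 on chromosome 4.

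Calls were spread unevenly as well. On chromosomes 3, 4, 12, 14 and 19 together 144 of 1646 genes were called lower (8.75%) and 20 higher (1.22%), and on all others 120 of 5655 lower (2.12%) and 121 higher (2.14%). Chromosome 4 alone held 72 of the 264 genes called lower, or 27.3%, and 1 called higher. With chromosome medians subtracted, 8 of its genes were called higher and 11 lower. When the genes of chromosome 4 were taken in order along it in 5 blocks, the block medians were -0.55, -0.67, -0.63, -0.67 and -0.37, and on chromosome 3 they were -0.36, -0.37, -0.37, -0.41 and 0.04. The lower values thus ran over the whole of chromosome 4 and over all but the last block of chromosome 3, which began at Snx7. On chromosome 13 the first 2 blocks stood at 0.29 and 0.31 and the other 3 at 0.09 to 0.11. The brain P2 arrays, from the next passage of the same cells, had chromosome 4 medians of -0.52 and -0.62, and the brain P3 arrays 0.10 and -0.11. Brain P3 replicate 2, the array at -0.11, was below 0 on most chromosomes, with -0.28 on chromosome 1 and -0.26 on chromosome 2. On chromosome 14 the arrays of bone marrow, lung and breast were above 0, at 0.27, 0.24 and 0.26, and on chromosome 19 bone marrow, lung and the second brain experiment were below 0 as well, at -0.22, -0.40 and -0.16. DNA was not measured, and the part of gene copy number in these medians was not tested.

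The 3 largest called changes on each of those chromosomes were as follows. On chromosome 4 they were Sdc3, the syndecan of neural and other cells, at -2.59, Pakap at -2.55 and Ak4, a mitochondrial adenylate kinase, at -2.49, all still called with the medians subtracted (adjusted p = 0.047, 0.018 and 0.024). The probe set that stood for Ak4 is numbered among those of chromosome 2 genes, so the chromosome 4 median may not apply to it. Mtap, an enzyme of methionine salvage named after its values were seen, fell from 10.49 and 10.21 to 8.43 and 8.39 (change -1.94, SE 0.17, adjusted p = 0.00051). On chromosome 3 they were Prss12, Tmem154 at -2.54 and S100a14, on 12 Gpx2, Crip2 and Osr1, a transcription factor, at -2.35, on 13 Akr1c18, Edn1 and Iqgap2, a scaffold protein, at -2.16, on 14 Kcnma1, Nt5dc2 and Slc7a7, on 19 Ms4a6d, AW112010 and Pacs1, a sorting protein, at -2.32, and on X Tmem47, Cldn2 and Slc6a14. With the medians subtracted S100a14 alone of these lost its call (adjusted p = 0.064). Gpx2, Kcnma1 and Nt5dc2 rose on chromosomes whose median was lower. Mtap, Iqgap2 and Pacs1 held under all omissions. Sdc3 was lost without either parental array and without brain P1 replicate 2, Pakap in every omission except that of brain P1 replicate 2, Ak4 without parental P0 replicate 2 and brain P1 replicate 2, Tmem154 without parental P0 replicate 2 and brain P1 replicate 1, S100a14 in every omission except that of parental P0 replicate 2, Osr1 without either brain P1 array and Edn1 without brain P1 replicate 2 (highest adjusted p = 0.21 for S100a14 without brain P1 replicate 2, change -2.01).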

How the data were processed

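RNA of cultured N202 cells was hybridized to 21 arrays in 16 groups, and groups were read from the labels. The deposited values are on the log2 scale, made by the authors with RMA in the Affymetrix Expression Console (version not given in the sources used here), and were used without further scaling; scanner intensities were not used here. The study removed dim probe sets against negative controls; here 30.3% of 34760 were kept, by largest group mean. Of all probe sets 21640 carry 1 symbol, 1321 several and 11799 none; 21553 gene identifiers were found in a RefSeq table of GRCm38.p6, used for chromosomes and gene order. The brightest probe set stood for a gene.

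Group means of all arrays were fitted with limma 3.58.1 in R 4.3.3 (empirical Bayes, 5 residual and 3.9 prior degrees of freedom) and summarized with Python 3.11.15. On simulated data the fit called 1 of 50 genes changed 1.5-fold, 22 of 50 changed 2-fold and 45 of 50 changed 4-fold. Fewer genes changed there than were called in the data, so these rates may not carry over. The number of arrays limits the precision. A gene set apart in the text came from the 15 highest and 15 lowest calls, up to 5 calls per list and direction, the markers, or the 3 largest calls on a chromosome with a median beyond 0.1. The 15 highest and 15 lowest had to have both brain P1 arrays on the same side of both parental arrays, which every call did. Members, lists and this rule were chosen with earlier results of these data known. Alternatives concerned filters, scaling, variance, probe sets, fold limits, chromosome medians and single arrays.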

Additional observations from a re-analysis of the deposited data

Results flagged for a closer look

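These values passed a test of the difference between the brain P1 arrays and other P1 arrays. The lone arrays are assumed to vary like the pairs, whose spread is that of technical replicates, so no difference between tissues or between experiments is shown. Brain P1 differed from the mean of bone marrow, lung and breast P1 in 343 genes higher and 518 lower, and from P1 of the second brain experiment in 175 higher and 335 lower. Brain P1 minus the second experiment and brain P1 minus the other tissues, in log2 units, were -6.41 and -5.20 for Timp3, -5.24 and -5.16 for Tns4, -3.93 and -2.21 for Cldn2, 6.72 and -2.51 for Kcnma1, 5.55 and 5.25 for Tmem47, 6.07 and 6.12 for Gpx2, 4.86 and 4.64 for Akr1c18, and 1.71 and 4.33 for Kit. For Ecrg4 only the difference from the second experiment passed, at -4.65.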

How the results depend on the processing

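The main counts were 141 genes higher and 264 lower. They were 36 and 44 without the filter on dim probe sets, 503 and 833 at 1.5-fold with no test, 6 and 11 when the 5 arrays of highest floor were dropped (which leaves 1 residual degree of freedom), and 0 and 1 with the second brain P1 array added (limma, unadjusted p under 0.05: 392 and 555). Leaving out single arrays gave 34 to 86 higher and 59 to 111 lower. The other alternatives stayed within 1.5 times the main counts. Equal array medians gave 189 and 273 and cyclic loess 185 and 275. All 129 genes under the naming rule kept their direction in every alternative that tested them; 86 lost the call without the filter, 113 without the 5 arrays, 129 with the second experiment, 19 with only the 4 arrays in the fit and 20 with chromosome medians subtracted. Limited depth at the dim end, under 7.33, leaves sizes there uncertain. No paired analysis was possible because the labels number only the parental arrays.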
